A study of Mus musculus with 32 samples.

Results

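The comparison described here is the effect of partial hepatectomy on mRNA level in mouse liver, read from the input libraries, which were sequenced without antibody enrichment. Its members are the 16 input libraries of a series of 32, and the 2774 of 55421 listed genes that had a mean of at least 50 CPM (counts divided by the library's total and multiplied by 1000000) over those inputs. The groups were Mettl14 KO after hepatectomy, Flox control after hepatectomy, Mettl14 KO after sham surgery and Flox control after sham surgery, with 4 animals in each. Mettl14 encodes the partner of METTL3 in the enzyme that writes m6A, the methylated adenosine of mRNA, and the control animals carry the floxed gene. The KO animals and the hepatectomised Flox controls were 72 to 73 days old and the sham Flox controls 71 to 77 days. The promoter driving recombination was not given in the sources used here, nor was the time between surgery and tissue collection. The question was how the mRNA of the remaining liver differs from that of a liver that was only exposed, with both genotypes read together and genotype as a term of the fit.

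The liver regrows after part of it is removed. Remaining hepatocytes, normally at rest, leave the resting state, switch on immediate early genes such as Jun and Egr1, raise cyclins and copy their DNA, while the organ goes on making plasma proteins, glucose, lipids and urea. Fibrinogen, the clotting protein made of the products of Fga, Fgb and Fgg, comes from hepatocytes and is an acute phase protein. In bulk tissue of this kind, fewer cells of a type and less RNA per cell cannot be told apart.

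The inputs held 10566363 to 12533871 counts after hepatectomy and 8177746 to 12360451 after sham surgery. Hepatectomised livers had 5759 ± 1367 genes with at least 10 counts and sham livers 5702 ± 1664 (SD, n = 8 each; exact two-sided permutation within genotype, p = 0.931). All 8 hepatocyte markers were above the 50 CPM minimum, with a summed level of 57599 to 71492 CPM after hepatectomy and 64740 to 73118 CPM after sham surgery. Mettl14 was at 0 in 16 of 16 inputs, so the inputs could not be used to check the genotype labels. By counting error alone a count of 0 allows up to 0.239 to 0.367 CPM. The level behind a 0 could be higher in these libraries, where 86.9% of genes with a mean of 50 to 100 CPM had a library at 0.

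No gene passed the threshold for a difference between hepatectomised and sham livers (0 of 2774 genes, 0%, edgeR quasi-likelihood test, Benjamini-Hochberg adjusted p under 0.05). The nearest was Scd1, the stearoyl-CoA desaturase that makes monounsaturated fatty acids, which averaged 1053 ± 294 CPM in hepatectomised livers and 2534 ± 1161 CPM in sham livers (SD, n = 8 each). Among the 39 genes with an unadjusted p under 0.05 (1.41% of those tested), 14 had a higher estimate after hepatectomy (0.505%) and 25 a lower one (0.901%). This share was uneven by level, with 1 of 1421 genes at 50 to 100 CPM (0.0704%) and 17 of 1148 at 100 to 500 CPM (1.48%). It was 6 of 94 at 500 to 1000 CPM (6.38%) and 13 of 90 at 1000 to 5000 CPM (14.4%). At 5000 CPM or more it was 2 of 21 (9.52%). In order of unadjusted p the lower side began with Scd1, Mug1, Rdh7, Mup3, Cat, Nfic and Pck1, and the higher side with Trf, Clu, Cpn2, Fgl1, Ahsg and Gnb1. DESeq2 on the same genes also called 0, with 96 genes at an unadjusted p under 0.05. With limma-voom on the same genes 139 had an unadjusted p under 0.05, and 1 was called, Scd1. The number of genes under this cut-off thus depended on the fit.

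Scd1 (chromosome 19, 44394455 to 44407879 in the coordinates of the deposited table, with no build named there) had 1006, 992, 573 and 1560 CPM in the 4 hepatectomised KO livers and 1232, 1055, 811 and 1198 CPM in the 4 hepatectomised Flox livers. In the sham KO livers it had 3395, 1430, 4804 and 2691 CPM, and in the sham Flox livers 2581, 2436, 1418 and 1517 CPM. The groups overlapped through a single hepatectomised KO liver, the highest of its group, and 7 of 8 hepatectomised livers lay below the lowest sham liver. The estimated log2 change was -1.22 (SE 0.23, 95% interval -1.68 to -0.75), with an adjusted p of 0.0579 in edgeR. The estimate was -1.55 (SE 0.31, adjusted p = 0.194) within KO animals and -0.88 (SE 0.31, adjusted p = 0.9998) within Flox animals, and the interaction between surgery and genotype had an unadjusted p of 0.147. Scd1 passed the threshold in 11 of 33 other settings, 2 of them being fits without sham Flox replicate 3 (adjusted p = 0.0391) or without sham KO replicate 2 (adjusted p = 0.0206), with estimates from -1.60 to -1.04 over all of them. Its adjusted p was 1 without the 2 sham Flox animals aged 77 days, 0.417 with age as a covariate, 0.169 with the replicate number as a block and up to 0.284 on leaving out a library, and over the 33 settings it ran from 1.74e-05 to 1.

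**Figure D1:**
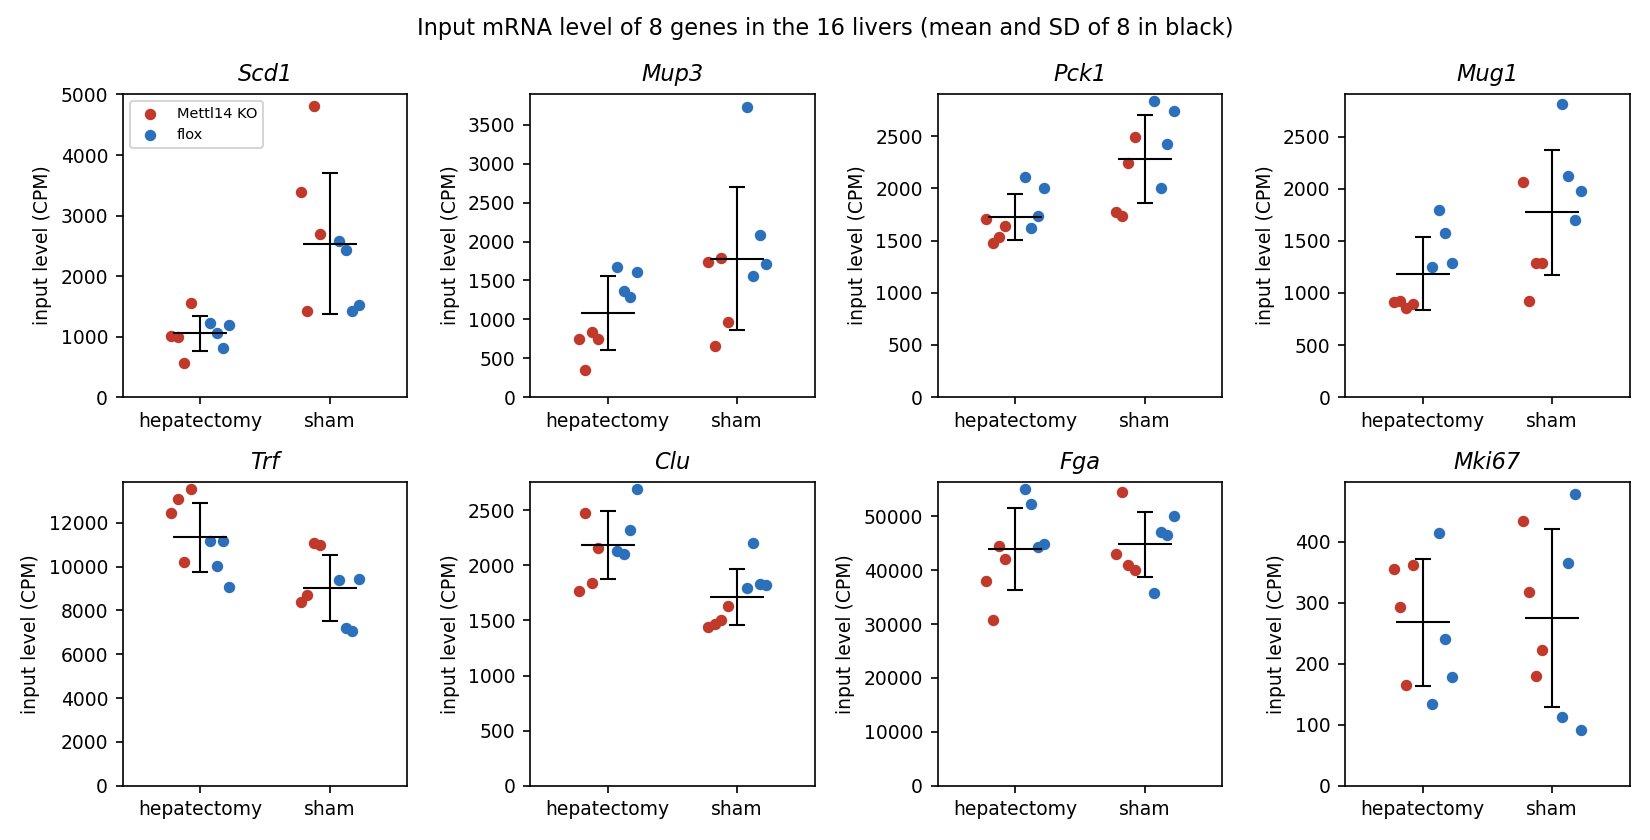
Level of 8 genes in the 16 input libraries, in CPM on linear axes that start at 0, with hepatectomised livers left of sham livers, KO in red and Flox in blue. The black mark is the mean and the bar 1 SD of 8 livers. Scd1 lies at 573 to 1560 CPM after hepatectomy and 1418 to 4804 CPM after sham surgery, while Mki67 and Fga cover much the same range in both.

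The other genes of fatty acid and triglyceride synthesis did not pass either. Of 23 listed genes 15 were above the 50 CPM minimum and 0 were called, with 6 estimates above 0 and 9 below, a median log2 change of -0.30 and a range of -1.22 to 0.78, against a median of 0.00 over all genes tested. Fads2, a fatty acid desaturase, had 88.1 CPM after hepatectomy and 169 CPM after sham surgery on average (log2 -0.92, SE 0.69). Dgat2, which completes triglycerides, averaged 160 CPM after hepatectomy and 93.8 CPM after sham surgery (log2 0.78, SE 0.84). Apart from Scd1 every member of this list had an unadjusted p of at least 0.196. Cholesterol synthesis and uptake had 6 of 22 genes above the minimum, with a median of -0.83 and a median SE of 1.09.

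Mug1, a murinoglobulin and plasma protease inhibitor, had 852 to 1793 CPM (median 1084) in hepatectomised livers and 925 to 2816 CPM (median 1841) in sham livers, with a log2 change of -0.58 (SE 0.16, adjusted p = 0.9996 in edgeR). Mup3, a major urinary protein that carries pheromones, had 355 to 1678 CPM (median 1066) after hepatectomy and 657 to 3734 CPM (median 1725) after sham surgery, with a log2 change of -0.76 (SE 0.23, adjusted p = 0.9996). Both genes had wide and overlapping groups. In each surgery the Mup3 level of the KO livers lay mostly below that of the Flox livers. The 12 of 19 major urinary protein genes above the minimum gave 10 estimates below 0, a median of -0.47 and a range of -1.07 to 0.05, with 1 unadjusted p under 0.05, that of Mup3. Many of these genes are near-identical copies, so how reads were split between them is uncertain, and the members are not all separate measurements.

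Rdh7, a retinol dehydrogenase of the microsomal membrane, had 89.1 to 211 CPM (median 117) in hepatectomised livers and 203 to 662 CPM (median 323) in sham livers, and 6 of 8 hepatectomised livers were below the lowest sham liver (log2 -1.30, SE 0.37). Cat, the catalase that breaks down hydrogen peroxide, had 506 to 1258 CPM (median 1085) after hepatectomy and 1241 to 1937 CPM (median 1487) after sham surgery, again with 6 of 8 below the lowest sham liver (log2 -0.56, SE 0.18). Pck1, the enzyme that starts gluconeogenesis from oxaloacetate, had 1472 to 2110 CPM (median 1671) after hepatectomy and 1731 to 2839 CPM (median 2337) after sham surgery (log2 -0.39, SE 0.13). The separation of the livers was thus narrow in each of the 3, and none passed the test (edgeR adjusted p = 0.9996 each). Cyp2f2, a periportal cytochrome P450, averaged 454 ± 222 CPM after hepatectomy and 736 ± 207 CPM after sham surgery (SD, n = 8 each; log2 -0.71, SE 0.26). Car3, carbonic anhydrase 3, averaged 267 ± 158 CPM after hepatectomy and 596 ± 423 CPM after sham surgery (SD, n = 8 each; log2 -1.02, SE 0.35), with the highest values in sham Flox replicates 1 and 2, the animals aged 77 days. The Car3 estimate was -0.64 without those 2 animals and -0.71 with age as a covariate. Nfic, a transcription factor of the NFI family, and Macf1, a very large protein linking actin and microtubules, were estimated at -1.17 (SE 0.37) and -1.30 (SE 0.45).

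The 10 genes with the smallest p on the higher side encode both secreted proteins and others (Gnb1, Paqr9, Rxra and Cycs). The share of secreted proteins among all genes tested was not counted. Trf, transferrin, the iron carrier of plasma, had 9080 to 13538 CPM (median 11164) in hepatectomised livers and 7052 to 11078 CPM (median 9044) in sham livers, with a log2 change of 0.34 (SE 0.10, 95% interval 0.13 to 0.54, edgeR adjusted p = 0.9996). Of the 8 hepatectomised livers 5 lay above the highest sham liver and the others inside the sham range. Trf passed the threshold in 4 of 33 other settings, those that tested all genes with any count, used filterByExpr or set the minimum at 500 or 1000 CPM, with estimates from 0.27 to 0.40 over all of them. Clu, clusterin, an extracellular chaperone, averaged 2187 ± 307 CPM after hepatectomy and 1712 ± 255 CPM after sham surgery (SD, n = 8 each; log2 0.37, SE 0.13). Ahsg, fetuin-A, which binds calcium phosphate, averaged 3839 ± 1098 CPM after hepatectomy and 3009 ± 704 CPM after sham surgery (SD, n = 8 each; log2 0.35, SE 0.14). Hrg, histidine-rich glycoprotein, and Cpn2, a subunit of the carboxypeptidase that trims kinins, were estimated at 0.39 (SE 0.17) and 0.54 (SE 0.19).

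Fgl1, a fibrinogen-like protein secreted by hepatocytes and known to promote their growth, had 178 to 1077 CPM (median 457) in hepatectomised livers and 106 to 387 CPM (median 300) in sham livers, a log2 change of 0.89 (SE 0.34, edgeR adjusted p = 0.9996). Its estimate was 0.17 (SE 0.44) within KO animals and 1.61 (SE 0.44, edgeR adjusted p = 0.648) within Flox animals. The hepatectomised Flox livers had 890, 483, 1077 and 430 CPM and the sham Flox livers 268, 387, 180 and 106 CPM. The interaction for Fgl1 had an unadjusted p of 0.0313 and an adjusted p of 0.9999. Rxra, the nuclear receptor that partners other nuclear receptors, Paqr9, a membrane protein of the progestin and adipoQ receptor family, and Cycs, the cytochrome c of the respiratory chain, were estimated at 0.54 (SE 0.23), 0.98 (SE 0.41) and 1.16 (SE 0.49). Gnb1, a subunit of heterotrimeric G proteins, was at 0 to 270 CPM (median 62.7) after hepatectomy, with 1 of 8 libraries at 0, and at 0 to 17.9 CPM (median 0.044) after sham surgery, with 4 of 8 at 0. Its fitted log2 change was 4.80 (SE 1.67), and over the other settings it ran from 4.19, without sham KO replicate 2 and hepatectomised Flox replicate 1, to 7.06, with the replicate number as a block.

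**Figure D2:**
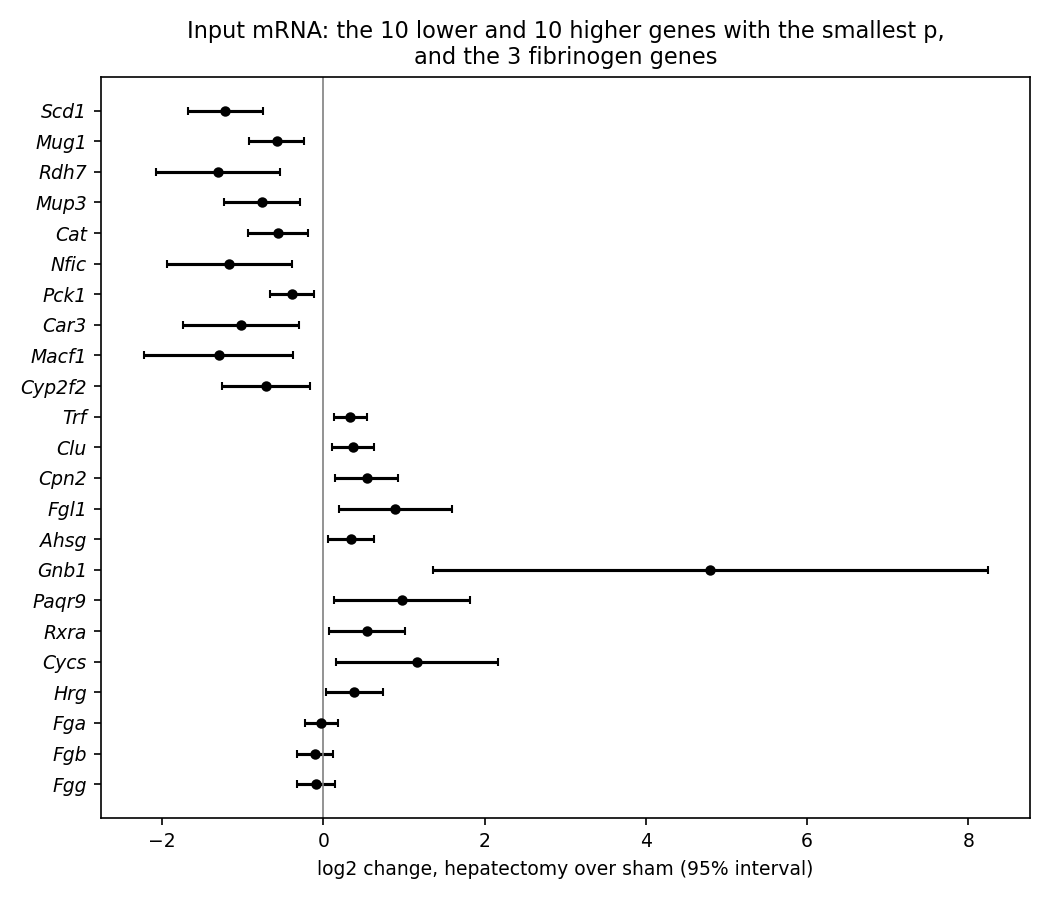
Estimated log2 change, hepatectomy over sham, with its 95% interval for the 10 lower and the 10 higher genes with the smallest p and for the fibrinogen genes. The intervals are not adjusted for the 2774 tests. Those of Fga, Fgb and Fgg lie between -0.33 and 0.19, while that of Gnb1 runs from 1.36 to 8.24.

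The fibrinogen genes did not pass the test, although their errors were among the 20 smallest of the 2774 genes (SE 0.10 for Fga and 0.11 for Fgb and Fgg). They lie next to each other on chromosome 3 (Fgg at 83007724 to 83015049, Fga at 83026076 to 83033627 and Fgb at 83040141 to 83049863). Fga averaged 43996 ± 7623 CPM in hepatectomised livers and 44783 ± 5992 CPM in sham livers (SD, n = 8 each), a log2 change of -0.02 with a 95% interval of -0.23 to 0.19. Fgb averaged 10576 ± 1705 CPM after hepatectomy and 11391 ± 1302 CPM after sham surgery (log2 -0.10, 95% interval -0.32 to 0.12), and Fgg 6436 ± 1175 CPM after hepatectomy and 6858 ± 515 CPM after sham surgery (log2 -0.09, 95% interval -0.32 to 0.15). The estimate of Fga changed sign with the scaling of the libraries, being -0.02 with TMM factors and 0.00 with DESeq2's size factors.

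The fibrinogen estimates were below 0 in KO animals and above 0 in Flox animals. Within KO animals they were -0.18 (SE 0.14) for Fga, -0.27 (SE 0.15) for Fgb and -0.29 (SE 0.15) for Fgg, and within Flox animals 0.13 (SE 0.14), 0.07 (SE 0.15) and 0.12 (SE 0.15). The unadjusted interaction p-values were 0.128 for Fga, 0.111 for Fgb and 0.0657 for Fgg, so this difference between genotypes did not pass either. Fgg had 5633, 4425, 5694 and 7168 CPM in hepatectomised KO livers, 8027, 6825, 6203 and 7510 CPM in hepatectomised Flox livers, 7052, 6969, 7681 and 6893 CPM in sham KO livers and 6054, 6517, 6419 and 7276 CPM in sham Flox livers. The lowest of the 16 levels was that of hepatectomised KO replicate 2, and without that liver the Fgg estimate over both genotypes was 0.01.

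Other secreted proteins of the liver gave list medians close to 0, and 0 members were called in each list. Coagulation factors and inhibitors had 21 of 21 genes above the minimum and a median of 0.02, complement 18 of 23 and a median of 0.00, and positive acute phase proteins 22 of 26 and a median of 0.03. The sign of these 3 medians depends on the scaling. Among the acute phase proteins Saa1, serum amyloid A1, averaged 653 CPM after hepatectomy and 944 CPM after sham surgery (log2 -0.60, SE 0.26). Lcn2, lipocalin 2, which binds bacterial iron carriers, averaged 3756 CPM after hepatectomy and 2951 CPM after sham surgery (log2 0.35, SE 0.17). The 15 of 17 apolipoprotein genes above the minimum had a median of -0.10 and 3 unadjusted p-values under 0.05, all lower: Apoe, the ligand of lipoprotein receptors, was estimated at -0.21 (SE 0.10), Apoa2, of high-density lipoprotein, at -0.36 (SE 0.17) and Apoh, a phospholipid-binding plasma protein, at -0.86 (SE 0.40). Carriers and negative acute phase proteins had 12 of 13 above the minimum and a median of -0.07, with 2 unadjusted p-values under 0.05, those of Trf and Ahsg.

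Metabolic enzymes of hepatocytes leaned below 0 in several lists, again with 0 genes called. Over all genes tested the median was 0.04 at 50 to 100 CPM and 0.01 at 100 to 500 CPM. It was -0.12 at 500 to 1000 CPM, -0.05 at 1000 to 5000 CPM and -0.02 at 5000 CPM or more. The smaller list medians are near these values. Amino acid breakdown had 30 of 42 genes above the minimum, 21 estimates below 0 and 9 above, and a median of -0.37. Hpd, which degrades tyrosine, averaged 570 CPM after hepatectomy and 820 CPM after sham surgery (log2 -0.52, SE 0.24), and Tat, the tyrosine aminotransferase, was estimated at -0.24 (SE 0.16). Cytochromes P450 of drug and steroid metabolism had 27 of 41 above the minimum, 19 below 0 and a median of -0.16. Cyp2e1, the pericentral enzyme that oxidises ethanol, averaged 1834 CPM after hepatectomy and 2343 CPM after sham surgery (log2 -0.34, SE 0.16). Gluconeogenesis, glycolysis and glycogen genes had a median of -0.17 over 19 of 25, bile acid synthesis -0.17 over 9 of 13, and hepatocyte transcription factors and nuclear receptors -0.23 over 15 of 23.

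Conjugation enzymes and esterases had a median of -0.03 over 32 of 52 genes, whose sign depends on the scaling, and metallothioneins and zinc handling -0.27 over 6 of 7. Fatty acid oxidation, ketogenesis and PPAR-alpha targets had a median of 0.02 over 29 of 36 genes, with 15 estimates above 0 and 14 below, and the sign of this median depends on the scaling. In that list Fabp1, the fatty acid binding protein of liver, was estimated at -0.41 (SE 0.19). Urea cycle and ammonia handling genes had a median of 0.09 over 11 of 11, in which Arg1, the arginase that releases urea, averaged 1558 CPM after hepatectomy and 1407 CPM after sham surgery (log2 0.15, SE 0.17). Antioxidant and Nrf2 target genes had a median of 0.46 over 11 of 20, with 9 above 0, although Cat lay below 0. The median SE per gene in that list was 0.56.

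**Figure D3:**
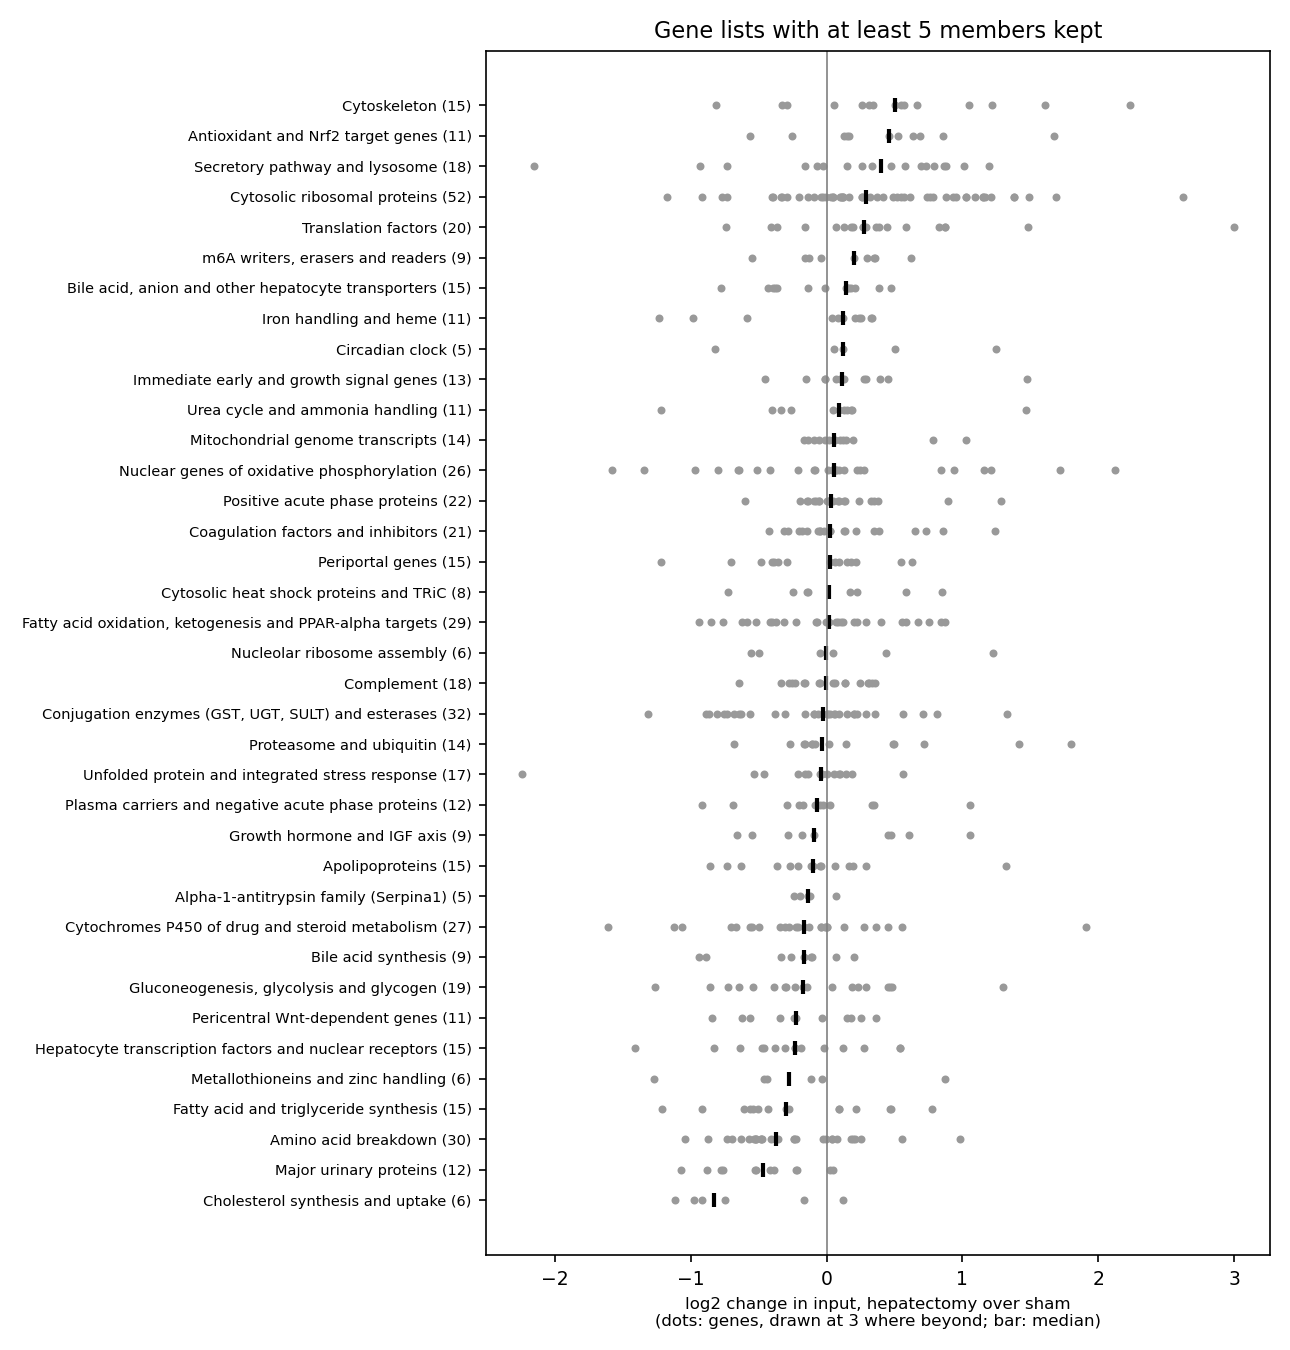
Log2 change in input, hepatectomy over sham, of the genes above the 50 CPM minimum in each list with at least 5 such genes (grey dots, number of genes in brackets) and the list median (black bar). Medians run from -0.83 for cholesterol synthesis and uptake to 0.50 for the cytoskeleton, and no gene shown passed the test.

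Genes of growth and division were mostly too low for the test. Of 52 cell cycle and DNA replication genes only Mki67 and Tubb5 were above the minimum. Mki67, the proliferation marker Ki-67, had 356, 294, 166 and 362 CPM in hepatectomised KO livers and 134, 414, 241 and 179 CPM in hepatectomised Flox livers, against 434, 318, 180 and 222 CPM in sham KO livers and 112, 365, 479 and 90.8 CPM in sham Flox livers. All 8 hepatectomised livers lay inside the sham range (log2 -0.03, SE 0.40, 95% interval -0.84 to 0.79). In the IP libraries of the same animals, made from RNA fragments pulled down with an antibody to m6A, Mki67 had 251 to 1665 CPM (median 400) after hepatectomy and 1.91 to 187 CPM (median 44.8) after sham surgery, and the groups did not overlap. There the log2 change of Mki67 was 3.33 (SE 0.49, edgeR adjusted p = 0.00865), in a fit that called 105 of the same 2774 genes (3.79%). Tubb5, a tubulin of dividing cells, was at 0 to 241 CPM after hepatectomy and 0 to 102 CPM after sham surgery in the inputs (log2 2.23, SE 1.55). Its input mean was 97.2 CPM after hepatectomy and 29.4 CPM after sham surgery. Tubb5 was thus above the minimum only through the hepatectomised livers.

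Most other cell cycle genes were seen in some livers and at 0 in others. Of the 52 genes, 20, 36, 29 and 26 had any count in the hepatectomised KO livers, 12, 12, 11 and 20 in the hepatectomised Flox livers, 13, 10, 33 and 18 in the sham KO livers and 11, 7, 7 and 10 in the sham Flox livers. The summed level without Mki67 was 368 to 945 CPM (median 661) after hepatectomy and 64.1 to 658 CPM (median 373) after sham surgery, with overlap. Counted by gene, 33 of 52 (63.5%) were seen in more hepatectomised than sham livers and 4 (7.69%) in fewer, beside 44.9% and 31.2% of all 17295 genes with an input count. Ccnd1, cyclin D1, which starts the passage from rest to DNA synthesis, had 3.18, 110, 35.6 and 104 CPM in hepatectomised KO livers, 4.95, 0, 4.18 and 25.2 CPM in hepatectomised Flox livers, 0.619, 9.25, 72.7 and 82.8 CPM in sham KO livers, and 0.405, 0, 0 and 0 CPM in sham Flox livers. The libraries with the most such genes were also those with the most genes of any kind, hepatectomised KO replicate 2 with 8278 genes and sham KO replicate 3 with 9354 genes at 10 counts or more, and the part of this in the result was not tested. As a share of all genes with at least 10 counts, the list made up 0.285% ± 0.0594 after hepatectomy and 0.172% ± 0.0643 after sham surgery (SD, n = 8 each). The 4 hepatectomised Flox livers had 4462 to 4950 such genes in all and 9 to 16 of the list, and the 4 sham Flox livers 4340 to 6156 in all and 5 to 10 of the list.

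**Figure D4:**
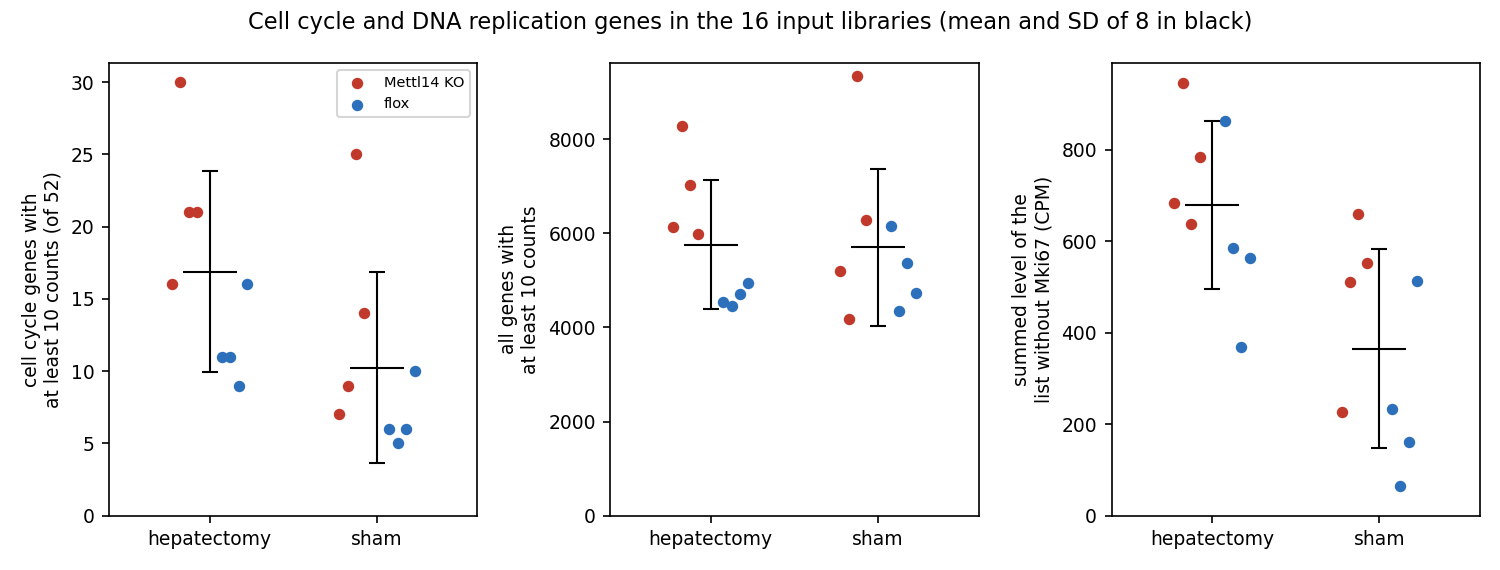
Cell cycle and DNA replication genes with at least 10 counts (left), all genes with at least 10 counts (middle) and the summed level of the list without Mki67 in CPM (right) in each input library, with hepatectomised livers left of sham livers, KO in red, Flox in blue and the mean and SD of 8 in black. The list had 9 to 30 such genes after hepatectomy and 5 to 25 after sham surgery.

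Immediate early and growth signal genes had 13 of 29 above the minimum, a median of 0.11 and 0 called. Jun averaged 374 CPM after hepatectomy and 407 CPM after sham surgery (log2 -0.15, SE 0.38), and Egr1 596 CPM after hepatectomy and 553 CPM after sham surgery (log2 0.12, SE 0.22). Egfr, the receptor of epidermal growth factor, was estimated at 0.28 (SE 0.19) and Met, the receptor of hepatocyte growth factor, at 0.45 (SE 0.56). In the growth hormone and IGF axis Igf1, the growth factor that hepatocytes release under growth hormone, averaged 519 CPM after hepatectomy and 342 CPM after sham surgery (log2 0.60, SE 0.27), and the median over 9 of 19 genes was -0.09.

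Several lists of protein synthesis and cell structure had medians above 0, and single genes in them had large errors. Of 79 cytosolic ribosomal protein genes 52 were above the minimum, 37 with estimates above 0 and 15 below, with a median of 0.29 and a median SE of 1.08. Their summed level was 5643 to 12215 CPM (median 7743) after hepatectomy and 5362 to 7068 CPM (median 6270) after sham surgery. Rpl4 averaged 271 CPM after hepatectomy and 116 CPM after sham surgery (log2 1.21, SE 0.54) and was the only member with an unadjusted p under 0.05. Ribosomal protein genes have many processed copies in the genome, so the split of their reads is uncertain. Translation factors had a median of 0.28 over 20 of 24 and the cytoskeleton 0.50 over 15 of 30, in which Actb, beta-actin, was estimated at 0.26 (SE 0.21). Nucleolar ribosome assembly genes had a median of 0.00 over 6 of 23, and Ncl, nucleolin, averaged 504 CPM after hepatectomy and 490 CPM after sham surgery.

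The mitochondrial genome gave 10.1% to 12.4% of the counts after hepatectomy and 10.9% to 13.7% after sham surgery, and 14 of its 15 transcripts listed were above the minimum with a median of 0.06. Of these, mt-Nd4 was estimated at -0.10 (SE 0.09) and mt-Nd2 at -0.17 (SE 0.10), both subunits of complex I. Nuclear genes of oxidative phosphorylation had 26 of 69 above the minimum, a median of 0.05 and a median SE of 1.13.

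Markers of the other cell types of liver were low in both groups. Kupffer cell or macrophage markers summed to 147 to 1063 CPM (median 594) after hepatectomy and 256 to 850 CPM (median 541) after sham surgery, with 3 of 10 above the minimum. Endothelial markers summed to 69.8 to 911 CPM after hepatectomy and 222 to 894 CPM after sham surgery, and stellate cell or fibroblast markers to 239 to 810 CPM after hepatectomy and 148 to 589 CPM after sham surgery. Clec4f, a receptor of Kupffer cells, was estimated at 0.26 (SE 0.62), but 2 of the 3 genes of that list were below 0 and its median was -0.11. The endothelial list also had 1 estimate above 0 and 2 below, with a median of -0.69. Col1a2, a collagen of stellate cells, was estimated at 0.92 (SE 1.23) in a list with 2 estimates above 0, 2 below and a median of 0.24. Krt19, a cholangiocyte marker, was at 0 in every input, unlike the other members of its list of 6. Together the cholangiocyte markers summed to 0 to 350 CPM (median 110) after hepatectomy and 51.0 to 244 CPM (median 121) after sham surgery. Of these 6 genes 1 was above the minimum. At 0 in every input were also 4 of 5 neutrophil markers and 5 of 7 lymphocyte markers.

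The size of change that could be seen depended strongly on the level of the gene. Among the 1421 genes with a mean of 50 to 100 CPM the spread within a group was 94.9% of the mean (median coefficient of variation) and 86.9% had a library at 0, although counting error alone would give 3.56%. It was 59.8% for the 1148 genes at 100 to 500 CPM, 22.3% for the 90 genes at 1000 to 5000 CPM and 11.7% for the 21 genes at 5000 CPM or more. The 95% interval of the log2 change lay within 1 of 0 for 0 genes of the lowest class and for 21 of 21 genes of the highest, and for 313 of 2774 genes in all (11.3%). At the edge of the 50 CPM minimum, Ggcx and Rrp1 were just inside with means of 50.03 and 50.04 CPM, and Mxi1 and Mthfd1 just outside with 49.9 and 49.8 CPM.

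**Figure D5:**
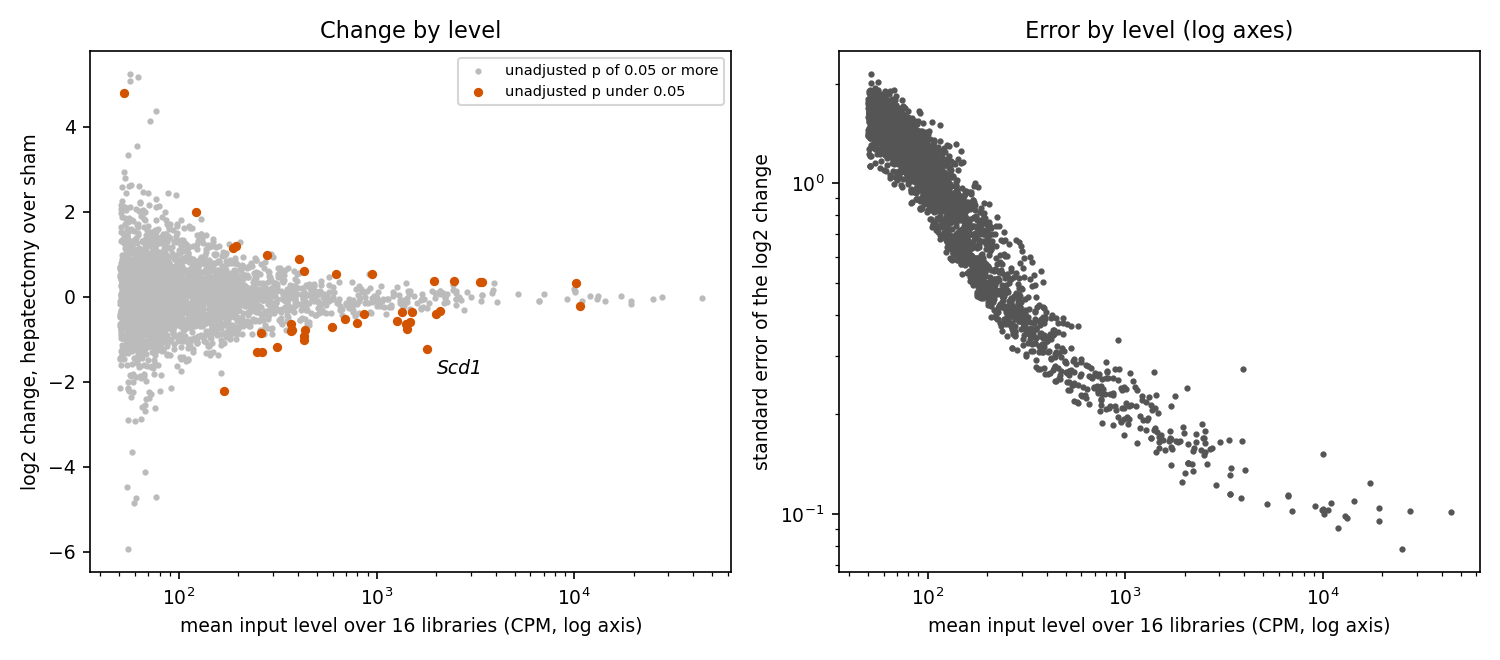
Log2 change, hepatectomy over sham (left, with the 39 genes at an unadjusted p under 0.05 in orange), and its standard error (right, log axis) against the mean input level of each of the 2774 genes in CPM on a log axis. The median SE is 1.41 at 50 to 100 CPM and 0.10 at 5000 CPM or more, and Scd1 is labelled.

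Only Pkp4, a junction protein of the plakophilin family, had every hepatectomised liver above every sham liver or the reverse, with the hepatectomised livers higher (1 gene, 0.036% of those tested). Its log2 change was 2.39, with an unadjusted p of 0.0933 in edgeR, and it was singled out after its values were seen.

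The same contrast in the IP libraries gave other values for these genes. There Scd1 averaged 1181 ± 776 CPM after hepatectomy and 5180 ± 2521 CPM after sham surgery (SD, n = 8 each), a log2 change of -2.03 (SE 0.41, edgeR adjusted p = 0.026) beside -1.22 in the inputs. Mup3 had a log2 change of -1.95 in IP (SE 0.34, adjusted p = 0.00865) beside an input estimate of -0.76. Car3 had -2.45 (adjusted p = 0.0343) beside -1.02, and Mug1 -1.41 (adjusted p = 0.0299) beside -0.58. Cyp2f2 had -1.48 (adjusted p = 0.0199) beside -0.71, Pck1 -1.09 (adjusted p = 0.0459) beside -0.39 and Cat -0.76 (adjusted p = 0.0457) beside -0.56. Rdh7 had -0.44 (SE 0.25, adjusted p = 0.369) in IP and -1.30 in input, Nfic 0.11 (SE 0.21) in IP and -1.17 in input, and Macf1 0.36 (SE 0.21) in IP and -1.30 in input. Of the genes on the higher side, Trf had -0.01 (SE 0.25) in IP and 0.34 in input, and Fgl1 -0.46 (SE 0.41) in IP and 0.89 in input. Rxra had -0.46 in IP and 0.54 in input, Paqr9 -0.52 and 0.98, Hrg -0.36 and 0.39, Cpn2 -0.23 and 0.54, and Gnb1 -0.29 and 4.80, with IP before input. Clu had 0.19 in IP and 0.37 in input, Ahsg 0.11 and 0.35, and Cycs 0.17 and 1.16. The IP adjusted p of these genes on the higher side was 0.243 or more. Both kinds of library came from the same animals, and an IP level holds both the amount of a transcript and the share of it that was pulled down.

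Surgery was also tested within each genotype. Within KO animals 0 genes passed (0%), with 38 at an unadjusted p under 0.05 (1.37%), and within Flox animals 0 genes passed (0%), with 49 (1.77%). DESeq2 on the same genes called 1 gene within KO animals and 16 within Flox animals. The interaction of surgery with genotype called 0 genes (0%), with 43 at an unadjusted p under 0.05 (1.55%) and a lowest adjusted p of 0.801, where DESeq2 called 8. Each of these edgeR shares was below the fraction of 0.05 that evenly spread p-values would give.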

How the data were processed

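The authors deposited a single table of estimated counts (expected counts), not scaled between libraries, which were rounded to whole numbers here; 1.33% to 2.81% of the values of an input column were not whole. Per the submitters' processing notes reads were handled with fastp and STAR, and per the labels' protocols inputs were made with the TruSeq Stranded mRNA kit and IP libraries with the NEBNext Ultra kit. The versions, counting program, annotation and genome build were not given in the sources used here. Genes were named by position against RefSeq GRCm38.p6, used for names only (36253 of 55421 genes, 95.2% of input counts; 2548 after a shift of 1000000 bases).

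Surgery was tested with genotype as covariate in edgeR 4.0.16 (R 4.3.3; TMM factors, quasi-likelihood F-test) over 16 inputs and genes with a mean of at least 50 CPM, with Benjamini-Hochberg adjustment over 2774 genes and a threshold of 0.05. A model with 1 mean per group gave the effects within genotype and the interaction. The same contrast was fitted to the 16 IP libraries. CPM levels were scaled to library totals, and intervals are at 95%. The fit was tested on simulated data. Totals of 8177746 to 12533871 counts went with a floor of 3 counts per library, which covers counting error only, since PCR copies cannot be told from separate molecules here. Replicates are separate animals by their titles and ages. DESeq2 1.42.0, limma-voom (limma 3.58.1), other scaling and filters, age, the replicate number and each library left out were tried. No batch is labelled.

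The text names the fibrinogen genes, Mettl14 and, since 0 genes passed, the 10 genes each way with the smallest p and a symbol other than a predicted model's. Examples from 40 gene lists and 9 marker lists are mostly the members with the smallest p or the best measured, chosen after their values were seen. Members, lists and tests were chosen with earlier results of these data known. No sequence is printed, since none bears on these levels.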

Additional observations from a re-analysis of the deposited data

Results flagged for a closer look

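Of 52 groups of 8 livers checked for a value set apart from the rest (Dixon's test at 95%, which flags about 1 in 20 by chance), 4 held one, all in the sham group. The Mup3 level of sham Flox replicate 1, aged 77 days, was 3734 CPM, with 2083 CPM in the next liver. The Fgb level of sham KO replicate 2 was 14389 CPM, with 11567 CPM in the next liver. Sham KO replicate 3 had 9354 genes with at least 10 counts, with 6285 in the next. The mitochondrial genome gave 13.7% of the counts of sham KO replicate 2, with 11.7% in the next liver.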

How the results depend on the processing

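Sham KO replicate 2 and hepatectomised Flox replicate 1 lay apart on the first principal component, and a further fit left them out. The count of 0 called genes became 1 lower gene, Scd1, with library totals only, with robust spread estimation and with limma-voom. The count was also 1, again Scd1, with genes above 0 in all inputs and without those 2 libraries. It became 2, Scd1 lower and Trf higher (1 each), with filterByExpr, with no filter and at a minimum of 500 or 1000 CPM; the 500 and 1000 CPM minima, the fit without 2 libraries and that on genes above 0 were chosen after seeing the data. Leaving out each library gave 0 to 1. Within KO the count was 2 with filterByExpr and at 500 CPM, 5 with no filter, 1 at 1000 CPM, with limma-voom, with DESeq2 and without the 2 libraries, and 0 to 1 on leaving out a library. Within Flox it was 1 with no filter, 16 with DESeq2 and 0 to 1 on leaving out a library; the interaction gave 3 with no filter, 8 with DESeq2 and 0 to 1. A filter changes the number of genes tested and also the fit itself, which is made on the genes kept. The cause of these differences was not tested. Fga turned to 0.0027 (log2) with RLE factors and DESeq2, 0.0148 at 100 CPM, 0.0290 at 500 CPM, 0.0189 at 1000 CPM, 0.0274 with genes above 0, 0.0290 without the 2 libraries, 0.0254 with limma-voom, and -0.0629 to 0.0687 on leaving out a library (Fgg -0.132 to 0.0143). The difference in genes with at least 10 counts was 56.9 (hepatectomy minus sham), -6.5 after thinning and -289.7 to 573.3 on leaving out a library.

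The labels reuse replicate numbers 1 to 4. With the replicate number as a block 0 genes passed in each contrast; deviations of same-numbered libraries correlated between -0.07 and 0.06, so the numbers do not pair the animals. Of the values of named genes under other settings, 710 kept direction and side of the threshold, 15 passed it and 13 changed sign.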
